A study of Rattus norvegicus with 18 samples.

Results

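The circadian clock genes described here are 10 genes taken by symbol from the 38445 genes counted in each library: the activators Bmal1 (also written Arntl) and Clock, the repressors Per1, Per2, Per3, Cry1 and Cry2, the REV-ERB receptors Nr1d1 and Nr1d2, and the output factor Dbp. All 10 were listed and all 10 passed the filter on low counts, so that they made up 10 of the 17853 genes tested. The RNA came from the dorsal hippocampus of 18 adult male Sprague Dawley rats, bought at 75 to 85 days of age and kept in a 12 h light cycle with lights on at 6 am. The 6 control rats were fed the Lieber-DeCarli control liquid diet. The 6 ethanol rats received the same liquid diet with 9% ethanol for 16 days and had no withdrawal, and the 6 withdrawal rats received 9% ethanol for 15 days and then the control diet for 24 h. All rats were housed singly and pair fed, each library came from 1 rat, and no transgene or deletion was used. The time of day of dissection was not given in the sources used here, and whether the groups were dissected at the same hour is therefore not known for genes whose RNA levels follow the time of day.

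The circadian clock is a loop of transcription that runs in nearly every cell of the body. BMAL1 and CLOCK proteins bind E-boxes in DNA as a pair and switch on the Per and Cry genes, whose proteins gather in the cytoplasm, return to the nucleus and shut that pair off. In a second loop the REV-ERB receptors, encoded by Nr1d1 and Nr1d2, repress Bmal1 through ROR elements, while Dbp and its relatives Tef and Hlf carry the rhythm to other genes through D-boxes. The master clock of mammals lies in the suprachiasmatic nucleus of the hypothalamus, and the hippocampus is among the brain regions with a clock of its own.

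The libraries held 30873228 to 42679748 read pairs on genes per rat, and the 10 clock genes had between 417 (Cry1 in ethanol rat 3) and 6491 (Nr1d2 in withdrawal rat 5) read pairs in a rat. Levels are given as CPM (counts scaled to library size by TMM), with the SD over 6 rats, and levels of different genes are compared only per kb of exon. In the control rats Dbp had the highest level per kb (58.5 ± 2.2 CPM per kb, SD, n = 6). Nr1d2 (32.1 ± 1.4 CPM per kb), Cry2 (31.4 ± 1.1 CPM per kb) and Nr1d1 (30.6 ± 2.2 CPM per kb) came next and lay within their spread of each other. Per3 (11.9 ± 1.1 CPM per kb), Clock (10.9 ± 0.42 CPM per kb), Bmal1 (10.4 ± 1.1 CPM per kb), Per1 (9.73 ± 1.4 CPM per kb) and Per2 (9.55 ± 1.4 CPM per kb) formed a lower group. In that group Per3 lay above Bmal1, Per1 and Per2 by more than the SD of either gene. Cry1 was lowest at 5.32 ± 0.44 CPM per kb, and it is the 1 member whose span overlaps another annotated gene on the same strand, which could take reads from it or make them ambiguous.

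The stretches of DNA around the starts of these genes are where the factors of the loop can meet. A RefSeq window of 250 bases before and 50 bases from the start (build GRCr8) was found for 9 of the 10 genes, with 2 windows each for Clock and Nr1d1, and Cry1 had none in the table used. Both strands were searched for the E-box CACGTG, the related E-prime box CACGTT, the D-box in the spellings TTATGTAA and TTATGCAA, the ROR element in the spellings TAGGTCA and GGGTCA, and the cyclic AMP response element TGACGTCA. Of 33469 promoter windows of all genes, 6.42% held the E-box, 4.83% the E-prime box, 0.893% and 0.863% the D-box spellings, 2.63% and 13.8% the ROR spellings and 1.83% the cyclic AMP response element. The 11 windows of the clock genes held 7 matches, none of which overlapped another, in 5 genes: Bmal1, Cry2, Per2, Nr1d1 and Nr1d2. No match was found in these windows of Dbp, Per1, Per3 or Clock, which says only that these letters do not stand there. A match is a spelling and not a measured binding site.

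The Bmal1, Per2, Nr1d1 and Nr1d2 windows are shown because they hold the ROR element (in 2 spellings), the D-box, the E-prime box and the E-box, and those of Per3 and Dbp because their RNA levels carried the main results given further on. Capitals mark the matches. Bmal1 (chr1:176766078-176766377, plus strand) holds the ROR spelling TAGGTCA at positions −16 to −10 from the start. Per2 (chr9:99496944-99497243, minus strand) holds a D-box at −192 to −185 and an E-prime box at −62 to −57. The second window of Nr1d1 (chr10:84229405-84229704, minus strand) holds the E-box CACGTG at −191 to −186. Nr1d2 (chr15:9954784-9955083, plus strand) holds GGGTCA at positions 13 to 18. The Per3 window (chr5:166777751-166778050, minus strand) and the Dbp window (chr1:105312006-105312305, plus strand) are wholly in lower case.
Bmal1: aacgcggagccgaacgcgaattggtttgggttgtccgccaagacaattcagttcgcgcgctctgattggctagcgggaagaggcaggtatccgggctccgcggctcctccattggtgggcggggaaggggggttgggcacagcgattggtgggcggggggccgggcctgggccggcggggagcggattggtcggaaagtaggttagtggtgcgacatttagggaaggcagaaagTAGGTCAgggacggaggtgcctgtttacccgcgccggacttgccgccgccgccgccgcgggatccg
Per2: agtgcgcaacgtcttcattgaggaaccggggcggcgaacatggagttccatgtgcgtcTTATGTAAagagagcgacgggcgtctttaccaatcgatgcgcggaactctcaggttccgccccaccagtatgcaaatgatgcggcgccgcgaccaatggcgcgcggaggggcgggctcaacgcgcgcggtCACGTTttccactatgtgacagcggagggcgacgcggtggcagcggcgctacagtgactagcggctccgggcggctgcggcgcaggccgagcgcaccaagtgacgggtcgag
Nr1d1, second window: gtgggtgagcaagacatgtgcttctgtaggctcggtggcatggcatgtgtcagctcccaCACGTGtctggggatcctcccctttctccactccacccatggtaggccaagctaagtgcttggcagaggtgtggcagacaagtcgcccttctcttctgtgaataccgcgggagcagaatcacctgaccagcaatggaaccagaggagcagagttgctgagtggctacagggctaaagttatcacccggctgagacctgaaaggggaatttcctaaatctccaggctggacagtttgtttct
Nr1d2: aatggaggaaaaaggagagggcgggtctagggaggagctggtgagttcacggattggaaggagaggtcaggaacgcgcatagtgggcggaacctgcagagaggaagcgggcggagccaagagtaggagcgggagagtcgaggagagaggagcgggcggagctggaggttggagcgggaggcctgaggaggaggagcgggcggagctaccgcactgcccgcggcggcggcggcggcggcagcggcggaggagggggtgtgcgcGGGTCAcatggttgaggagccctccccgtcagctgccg
Per3: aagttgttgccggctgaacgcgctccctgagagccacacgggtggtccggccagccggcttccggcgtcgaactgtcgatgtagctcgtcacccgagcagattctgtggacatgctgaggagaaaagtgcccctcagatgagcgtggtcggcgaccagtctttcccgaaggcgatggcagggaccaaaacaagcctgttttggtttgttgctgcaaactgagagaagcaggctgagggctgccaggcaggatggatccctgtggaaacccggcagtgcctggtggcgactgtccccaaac
Dbp: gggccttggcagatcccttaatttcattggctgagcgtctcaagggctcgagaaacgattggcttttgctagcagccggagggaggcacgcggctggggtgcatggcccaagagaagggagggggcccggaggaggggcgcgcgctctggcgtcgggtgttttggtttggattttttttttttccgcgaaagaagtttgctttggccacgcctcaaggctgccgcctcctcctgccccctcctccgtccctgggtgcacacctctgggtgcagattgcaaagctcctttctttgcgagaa

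Between withdrawal and control rats, Per3 was the 1 of 10 clock genes called at q < 0.1 (limma-voom with 3 surrogate variables), where 5.41% of all genes tested were called. Its level was lower in withdrawal, and the call was lost in several other fits, given further on. No clock gene was called between ethanol and control, where 0.493% of all genes were called, nor between withdrawal and ethanol, where 2.72% were. At an unadjusted p under 0.05 by limma-voom, 4 members differed between withdrawal and control (Per3, Cry2, Clock and Nr1d1; 19.7% of all genes did), 1 between ethanol and control (Per3; 12.5% of all genes) and 2 between withdrawal and ethanol (Cry2 and Clock; 16.7% of all genes). In no comparison did the 6 rats of one group all lie beyond the 6 of the other for any member, while this held for 1.06%, 1.32% and 1.22% of all genes in the withdrawal vs. control, ethanol vs. control and withdrawal vs. ethanol comparisons. A test of any difference among the 3 groups called Per3 alone (q = 0.0881, limma-voom), where 5.60% of all genes were called.

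The median absolute log2 fold change over the 10 members was 0.17 for withdrawal against control, 0.13 for ethanol against control and 0.11 for withdrawal against ethanol, beside 0.090, 0.080 and 0.094 over all genes tested. The 2 comparisons with control share the control rats, so their values for a gene are not independent of each other. In whole tissue, fewer cells that express a gene and less RNA of it per cell cannot be told apart. The index that tags each library came from 1 set for all 6 control rats and from other sets for all ethanol and withdrawal rats, so index set and diet cannot be told apart in the comparisons with control.

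**Figure D1:**
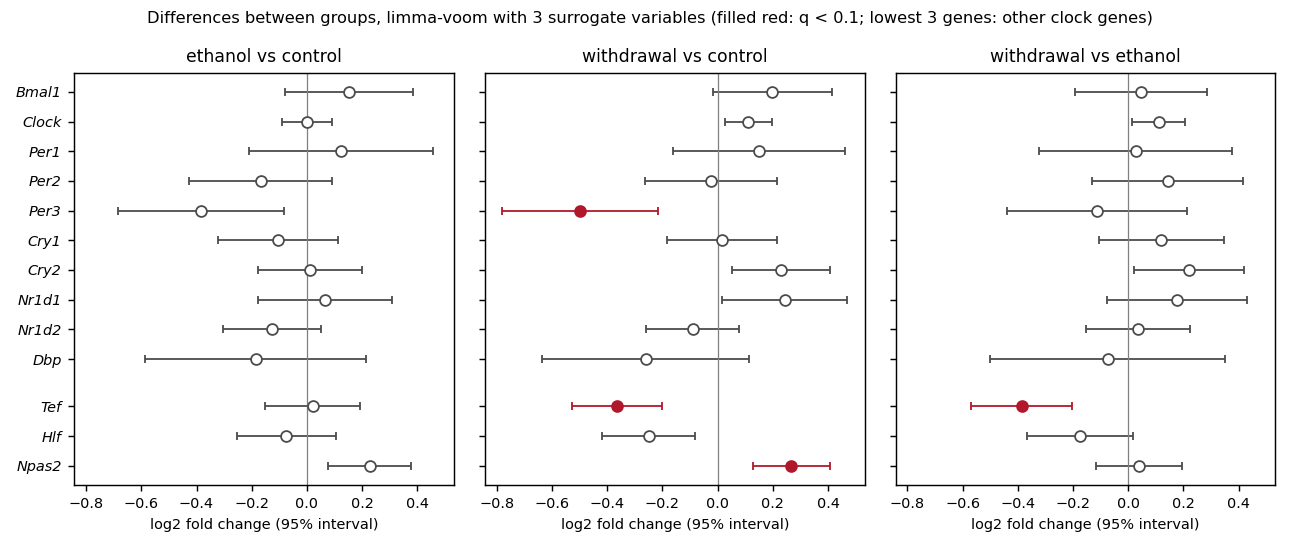
Log2 fold change (x axis) with its 95% interval for the 10 clock genes and, below the gap, for Tef, Hlf and Npas2, in the 3 comparisons, from limma-voom with 3 surrogate variables. Filled red points passed q < 0.1: Per3 at −0.50, Tef at −0.37 and Npas2 at 0.27 between withdrawal and control, and Tef at −0.39 between withdrawal and ethanol.

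Bmal1 and Clock encode the activating pair. Bmal1 (gene 29657, chromosome 1, 178039002 to 178137469 in Rnor_6.0) ranged from 28.8 to 38.0 CPM in control rats (median 33.6), from 29.9 to 46.0 in ethanol rats (median 33.9) and from 31.96 to 44.8 in withdrawal rats (median 36.1). The 3 ranges overlapped, and ethanol rat 5 and withdrawal rats 1 and 3 lay above all others. Its log2 fold change was 0.20 (SE 0.10, q = 0.295 by limma-voom) between withdrawal and control and 0.15 (SE 0.11, q = 0.606) between ethanol and control, neither past the test.

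Clock (gene 60447, chromosome 14, 34418226 to 34502218) had the smallest SD of log2 CPM within groups of the 10 when the 3 groups were pooled (0.064), while in control rats alone Cry2 and Dbp had slightly smaller ones. Its level ran from 107.6 to 119.1 CPM in control rats (median 109.7), from 105.7 to 116.6 in ethanol rats (median 107.4) and from 113.5 to 130.3 in withdrawal rats (median 118.7). Of the 6 withdrawal rats, 5 lay above every ethanol rat and 3 above every control rat. Mean levels were 110.7 ± 4.3 CPM in control, 109.9 ± 5.0 in ethanol and 120.4 ± 6.1 in withdrawal rats (SD, n = 6). That is a log2 fold change of 0.11 (SE 0.041, q = 0.144, limma-voom) against control and 0.11 (SE 0.046, q = 0.234) against ethanol, which do not pass q < 0.1. Clock was called against control without withdrawal rat 2 (q = 0.0923), and against ethanol without ethanol rat 5 (q = 0.0709) and with DESeq2 (q = 0.0435), where 10.7%, 10.1% and 8.08% of all genes were. The two-sided exact permutation test gave p = 0.00866 against control and p = 0.0108 against ethanol. These exact values are for 1 gene at a time, and 30 of them were computed for the members. The exact p printed here are not adjusted for that number, and after Benjamini-Hochberg adjustment over the 30 none is under 0.1.

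Per1, Per2 and Per3 encode the PERIOD proteins, of which PER1 and PER2 are the repressors needed for the rhythm and PER3 plays a lesser part. Per1 (gene 287422, chromosome 10, 55681761 to 55696557) stood between 58.3 and 91.4 CPM in control rats (median 84.4), between 55.3 and 109.5 in ethanol rats (median 99.8) and between 72.3 and 110.2 in withdrawal rats (median 89.2). Ethanol rats split into 4 at 99.7 CPM or more and 2, rats 3 and 4, at 64.9 CPM or less, and control rat 6 stood well below the other controls. Per1 did not pass the test in any comparison, with log2 fold changes of 0.15 (SE 0.15), 0.12 (SE 0.16) and 0.03 (SE 0.17) and a smallest q of 0.609 (limma-voom).

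Per2 (gene 63840, chromosome 9, 98555154 to 98597362) lay between 42.6 and 68.3 CPM in control rats (median 63.9), between 36.1 and 65.0 in ethanol rats (median 48.5) and between 50.5 and 76.0 in withdrawal rats (median 60.6). Control rat 6 was again the lowest control, and ethanol rats 1, 3 and 4 lay below every control and every withdrawal rat. The means were 61.0 ± 9.2 CPM in control, 49.2 ± 12.7 in ethanol and 60.9 ± 9.8 in withdrawal rats (SD, n = 6). Between ethanol and control the log2 fold change was −0.17 (SE 0.12, q = 0.614, limma-voom), while the difference of the mean log2 CPM, without surrogate variables, was −0.33 (two-sided exact permutation p = 0.0714). Ethanol rats 1 and 4 were also among the rats with the highest summed level of 6 thalamus marker genes (1252 and 704 CPM, where control rats ran from 202 to 631), and within groups the Per2 level correlated with that sum (Pearson r = −0.72, permutation p = 0.00397, n = 18; adjusted p = 0.198 over 100 relations tested; rho = −0.73, permutation p = 0.00372; r = −0.56 without the 2 farthest rats). The part of the thalamus markers in the Per2 level was not tested.

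Per3 (gene 78962, chromosome 5, 168088126 to 168123482) is the gene that was called. Control rats had 59.3, 67.8, 70.1, 59.3, 67.4 and 55.9 CPM. Withdrawal rats had 37.5, 56.2, 41.1, 52.4, 56.1 and 39.3 CPM, and ethanol rats 53.7, 64.6, 52.0, 46.9, 30.3 and 52.6 CPM. Of the withdrawal rats, 4 lay below every control, while rats 2 and 5 lay just above the lowest control. Of the ethanol rats, 5 lay below every control, with rat 5 lowest of all 18 and rat 2 inside the control range.

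The mean level of Per3 was 63.3 ± 5.8 CPM in control, 50.02 ± 11.3 in ethanol and 47.1 ± 8.7 in withdrawal rats (SD, n = 6). Against control, withdrawal gave a log2 fold change of −0.50 (SE 0.13, q = 0.0635, limma-voom), 0.708 times the control level with a 95% interval of 0.582 to 0.862, and the exact permutation test gave p = 0.00649. Ethanol against control gave −0.38 (SE 0.14, q = 0.276) with an exact permutation p of 0.0216, which does not pass the adjusted threshold. Withdrawal against ethanol gave −0.11 with a 95% interval from −0.44 to 0.21 and did not pass. That value rested on single rats: it was −0.33 without ethanol rat 5 (q = 0.0882, where 10.1% of all genes were called) and 0.083 without ethanol rat 2 (q = 0.863). The direction in withdrawal was the same in all 18 fits that each left out 1 rat, while q ran from 0.0166 to 0.219 and was above 0.1 without control rat 2, 3 or 5 or withdrawal rat 1, 3 or 6. Without surrogate variables q was 0.249 (limma-voom) at a log2 fold change of −0.44. The call was also lost with edgeR without surrogate variables (q = 0.231), with DESeq2 (q = 0.115), with no low-count filter (q = 0.106) and with the replicate number as a block without surrogate variables (q = 0.337).

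Cry1 and Cry2 encode the cryptochromes, which bind the PERIOD proteins and silence BMAL1 and CLOCK. Cry1 (gene 299691, chromosome 7, 24534593 to 24634098) lay between 13.4 and 17.0 CPM in control rats (median 15.9), between 12.3 and 15.5 in ethanol rats (median 13.4) and between 13.9 and 23.8 in withdrawal rats (median 15.0). Withdrawal rat 1 stood alone at 23.8 CPM, and the other 5 withdrawal rats lay at 15.8 CPM or less, within the control range. The mean of the ethanol rats was 13.7 ± 1.3 CPM against 15.7 ± 1.3 in control (SD, n = 6; q = 0.722 by limma-voom, log2 fold change −0.11, SE 0.10; exact permutation p = 0.0346), which does not pass the adjusted threshold.

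Cry2 (gene 170917, chromosome 3, 81314151 to 81344143) had 120.2 to 130.7 CPM in control rats (median 125.7), 115.8 to 141.6 in ethanol rats (median 121.3) and 125.5 to 195.5 in withdrawal rats (median 144.1). Withdrawal rats 1, 3, 4 and 6 lay above every control and every ethanol rat, with rat 1 far above, and rats 2 and 5 lay within the control range. The log2 fold change was 0.23 (SE 0.084, q = 0.144, limma-voom) against control, with an exact permutation p of 0.0260, and 0.22 (SE 0.095, q = 0.253) against ethanol. Neither passed q < 0.1. Without withdrawal rat 1 the fit gave 0.13 (q = 0.281) against control. Cry2 was called against control without withdrawal rat 2 (q = 0.0504), with only the 2 groups in the fit (q = 0.0536) and with the replicate number as a block with 3 surrogate variables (q = 0.0928), and against ethanol without ethanol rat 5 (q = 0.0966), fits in which 10.7%, 6.60%, 5.27% and 10.1% of all genes were called.

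Nr1d1 and Nr1d2 encode REV-ERB alpha and REV-ERB beta, nuclear receptors that repress Bmal1. Nr1d1 (gene 252917, chromosome 10, 86683875 to 86690815) overlaps Thra on the opposite strand, and the counts were made by strand. Its level ran from 70.6 to 82.9 CPM in control rats (median 79.9), from 64.6 to 99.5 in ethanol rats (median 82.3) and from 66.7 to 111.7 in withdrawal rats (median 100.4). Among withdrawal rats, 5 exceeded every control at 92.6 CPM or more, and rat 2 lay below every control at 66.7 CPM. The log2 fold change against control was 0.24 (SE 0.11, q = 0.220, limma-voom; exact permutation p = 0.0411) and did not pass. Without withdrawal rat 2 it was 0.36 with q = 0.0351, and in that fit 10.7% of all genes were called and 4 members (Per3, Cry2, Clock and Nr1d1). It was also called with sample quality weights (q = 0.0929, 6.34% of all genes called).

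Nr1d2 (gene 259241, chromosome 15, 8730871 to 8757165) ran from 141.3 to 158.3 CPM in control rats (median 147.6), from 99.6 to 162.4 in ethanol rats (median 142.2) and from 125.8 to 174.5 in withdrawal rats (median 138.4). Ethanol rat 5 was the lowest of all 18 rats, 4 withdrawal rats lay below every control and withdrawal rat 5 lay above every control. The means of 147.9 ± 6.2 CPM in control, 141.4 ± 22.95 in ethanol and 144.0 ± 18.7 in withdrawal rats (SD, n = 6) differed by less than the SD of the ethanol or of the withdrawal rats, and the smallest q of the 3 comparisons was 0.557 (limma-voom).

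Dbp (gene 24309, chromosome 1, 101687896 to 101692845) encodes a PAR bZIP transcription factor and is one of the most strongly rhythmic clock outputs in many tissues. Control rats had 103.9, 98.0, 97.3, 96.1, 94.2 and 93.7 CPM. Ethanol rats had 134.0, 131.8, 98.2, 91.7, 40.1 and 93.7 CPM, and withdrawal rats 66.5, 73.2, 81.3, 105.9, 111.7 and 80.5 CPM. The controls lay close together, the ethanol rats lay on both sides of them, and 4 of the 6 withdrawal rats lay below every control with the other 2 above every control.

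The group means of Dbp were 97.2 ± 3.7 CPM in control, 98.3 ± 34.2 in ethanol and 86.5 ± 18.2 in withdrawal rats (SD, n = 6). Withdrawal against control gave a log2 fold change of −0.26 (SE 0.18, q = 0.438, limma-voom; exact permutation p = 0.145), which did not pass. Dbp was called against control with only the 2 groups in the fit (q = 0.0311, 6.60% of all genes called) and against ethanol without ethanol rat 5 (q = 0.0648, 10.1% of all genes called). The ratio of Dbp to Bmal1, an output of the loop over one of its activators, was between 1.30 and 1.74 on the log2 scale in control rats. It was taken in CPM and not per kb of exon, so that it serves only to compare rats. In ethanol rats it ran from −0.20 to 2.14 and in withdrawal rats from 0.57 to 1.65, with ethanol rat 5 lowest and withdrawal rats 1, 2 and 3 next.

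**Figure D2:**
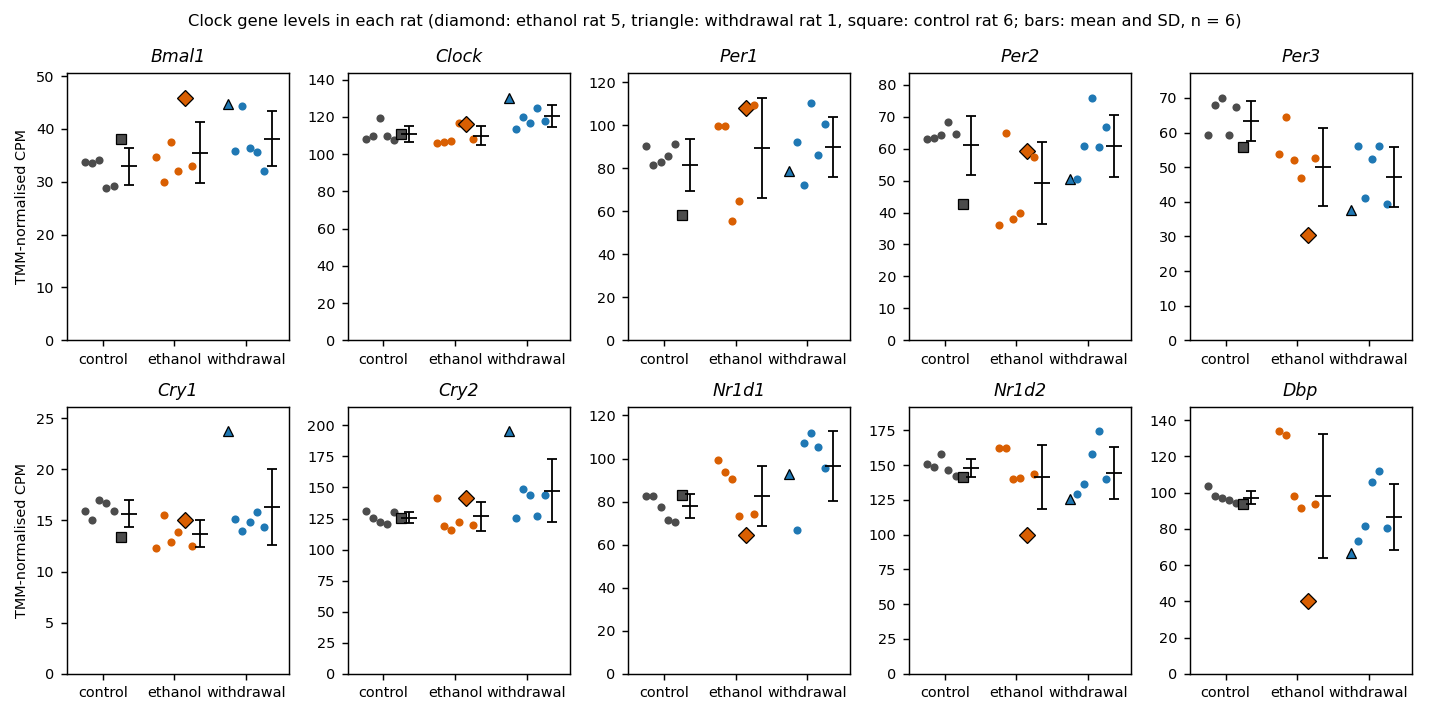
TMM-normalised CPM (y axis, from 0) of each clock gene in each rat by group, in rat order from left to right within a group, with the mean and SD of 6 rats as bars. Ethanol rat 5 (diamond) is lowest of all rats in Per3 (30.3 CPM), Nr1d1 (64.6 CPM), Nr1d2 (99.6 CPM) and Dbp (40.1 CPM) and highest in Bmal1 (46.0 CPM), withdrawal rat 1 (triangle) is highest in Clock, Cry1 and Cry2, and control rat 6 (square) is the lowest control in Per1 and Per2.

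The further genes of the clock were taken from a list of 28 (partners and relatives of the members, the kinases and ligases that set the life of PER and CRY, and known targets), of which 26 passed the low-count filter. Between withdrawal and control 1 of the 26 was called up, Npas2, and 1 was called down, Tef, where 5.41% of all genes were called. Between withdrawal and ethanol Tef was called down and none up, where 2.72% of all genes were called, and between ethanol and control none was called in either direction, where 0.493% were. At an unadjusted p under 0.05 by limma-voom, 9, 2 and 6 of the 26 differed in the withdrawal vs. control, ethanol vs. control and withdrawal vs. ethanol comparisons, beside 19.7%, 12.5% and 16.7% of all genes. The median log2 fold change of the 26 genes was 0.04, −0.02 and 0.03 in the withdrawal vs. control, ethanol vs. control and withdrawal vs. ethanol comparisons, with a median absolute value of 0.064, 0.067 and 0.065.

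Tef encodes a PAR bZIP factor that binds the same D-boxes as Dbp. Control rats had 288.3 to 351.4 CPM (median 334.3), ethanol rats 268.7 to 382.6 CPM (median 330.7) and withdrawal rats 222.2 to 284.1 CPM (median 256.8). Every withdrawal rat lay below every control rat and 4 of 6 lay below every ethanol rat. The mean fell from 326.7 ± 22.8 CPM in control to 256.5 ± 23.9 CPM in withdrawal (SD, n = 6; q = 0.0267 by limma-voom, log2 fold change −0.37, SE 0.077; exact permutation p = 0.00216, the smallest the test can give). Against the ethanol mean of 330.4 ± 37.4 CPM the log2 fold change was −0.39 (SE 0.087, q = 0.0531). Without withdrawal rat 6, q was 0.122 against control and 0.290 against ethanol, and in that fit 0.129% and 0% of all genes were called. The call against ethanol was also lost without ethanol rat 2 (q = 0.243) or ethanol rat 3 (q = 0.195), with only the 2 groups in the fit (q = 0.183), and with the replicate number as a block with 3 surrogate variables (q = 0.122) or with none (q = 0.107). The call against control was lost without surrogate variables by edgeR (q = 0.1003) and with the block (q = 0.175).

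Npas2, a close relative of Clock that can take its place beside BMAL1, had 47.0 to 59.3 CPM in control rats (median 55.8), 53.4 to 70.1 in ethanol rats (median 61.6) and 55.4 to 77.2 in withdrawal rats (median 71.4). In withdrawal, 4 of 6 rats lay above every control and every ethanol rat. It rose from 54.2 ± 4.5 CPM in control to 68.1 ± 9.0 CPM in withdrawal (SD, n = 6; log2 fold change 0.27, SE 0.066, q = 0.0467, limma-voom), and the call was lost without control rat 3 (q = 0.103) or 4 (q = 0.101) or withdrawal rat 3 (q = 0.102) or 6 (q = 0.127). It was also lost without surrogate variables, by limma-voom (q = 0.157), by edgeR (q = 0.125) and with the replicate number as a block (q = 0.214).

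Hlf, the third PAR bZIP factor, was not called, at 145.9 ± 9.2 CPM in control and 133.4 ± 28.3 CPM in withdrawal (q = 0.106 by limma-voom, log2 fold change −0.25, SE 0.080), with 4 withdrawal rats below every control and 1 above. Nfil3, which encodes a repressor of D-boxes, had a log2 fold change of 0.31 (SE 0.14, q = 0.229) between withdrawal and control, and Bhlhe40, a repressor of E-boxes, one of 0.23 (SE 0.10, q = 0.232), neither of which passed. Rora and Rorb, the activators that compete with the REV-ERBs, had log2 fold changes of 0.10 and −0.10 (q = 0.658 and 0.623), and Csnk1d and Csnk1e, the kinases that phosphorylate PER, of −0.0048 and 0.06 (q = 0.960 and 0.370).

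How the clock genes varied together between individual rats was read from each rat's own level. Each rat's log2 CPM was set against the mean of its group, and the 45 pairs of members were correlated over the 18 rats, with 100000 permutations within groups. Of the 45 coefficients 21 were positive and 24 negative, with a median of −0.03. A high value across rats of a bulk tissue also carries what the libraries share.

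The closest pair was Nr1d2 and Dbp, with Pearson r = 0.96 (permutation p = 2.0e-05, adjusted p = 9.0e-04 over 45 pairs) and Spearman rho = 0.93 (permutation p = 5.0e-05, adjusted p = 0.00225, n = 18), and r = 0.95 without the 2 rats farthest from the median of Nr1d2. The relation was present in each group, at r = 0.56 in control, 0.996 in ethanol and 0.98 in withdrawal rats (n = 6 each). Per1 and Per2 formed a pair of their own (r = 0.71, permutation p = 0.00538, adjusted p = 0.0445; rho = 0.76, permutation p = 8.9e-04, adjusted p = 0.0200), with r = 0.57 without the 2 farthest rats. Over all 18 rats Per1 and Per2 had r = −0.02 and −0.07 with Dbp (permutation p = 0.959 and 0.918; rho = 0.17 and 0.04). Within control, ethanol and withdrawal rats r was 0.48, −0.16 and 0.42 for Per1 and 0.39, −0.33 and 0.71 for Per2 (n = 6 each).

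The r of Per3 was 0.82 with Dbp (permutation p = 0.00563, adjusted p = 0.0445) and 0.80 with Nr1d2 (permutation p = 0.00498, adjusted p = 0.0445), while the Spearman coefficients were 0.66 and 0.69 (permutation p = 0.00823 and 0.00626, adjusted p = 0.0741 and 0.0704). Without the 2 rats farthest from the median of Per3 these fell to r = 0.54 and 0.55, so that the Pearson values rest in part on those rats. For Per3 and Dbp r was −0.03 in control, 0.96 in ethanol and 0.61 in withdrawal rats, and for Per3 and Nr1d2 0.52, 0.96 and 0.56 (n = 6 each). Nr1d1 also went with Dbp (r = 0.70, permutation p = 0.00144, adjusted p = 0.0324; rho = 0.68, permutation p = 0.00503, adjusted p = 0.0704) and with Nr1d2 (r = 0.68, permutation p = 0.00594, adjusted p = 0.0445; rho = 0.57, permutation p = 0.0281, adjusted p = 0.180). With Per3 it had r = 0.29 (permutation p = 0.358), and −0.0083 without the 2 rats farthest from the median of Per3.

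Bmal1 ran the other way from Dbp, Nr1d2 and Per3, with r = −0.61, −0.60 and −0.63, but no negative pair passed the adjustment by either coefficient (smallest permutation p = 0.00781 for Per3 and Cry2, adjusted p = 0.0502). For Bmal1 and Dbp, rho was −0.29 (permutation p = 0.265) against a permutation p of 0.0322 for r, and r was −0.19 without the 2 rats farthest from the median of Bmal1, so that this relation rests on those rats.

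**Figure D3:**
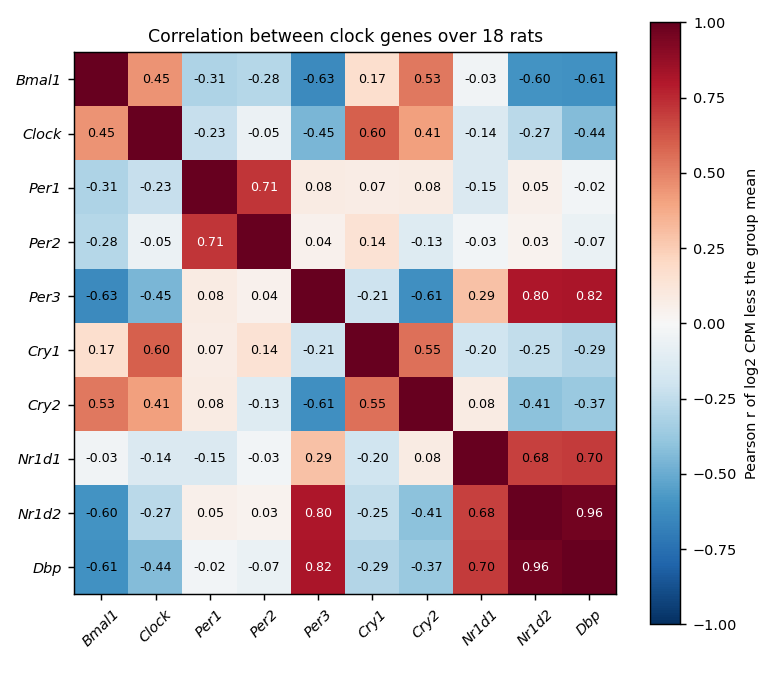
Pearson r between each pair of clock genes over 18 rats, from log2 CPM less the group mean, in colour and in figures. Per3, Nr1d2 and Dbp form a block with r from 0.80 to 0.96. Nr1d1 is tied to Dbp at 0.70 but has 0.29 with Per3. Per1 and Per2 stand apart with 0.71, and Bmal1 is negative with Per3, Nr1d2 and Dbp.

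**Figure D4:**
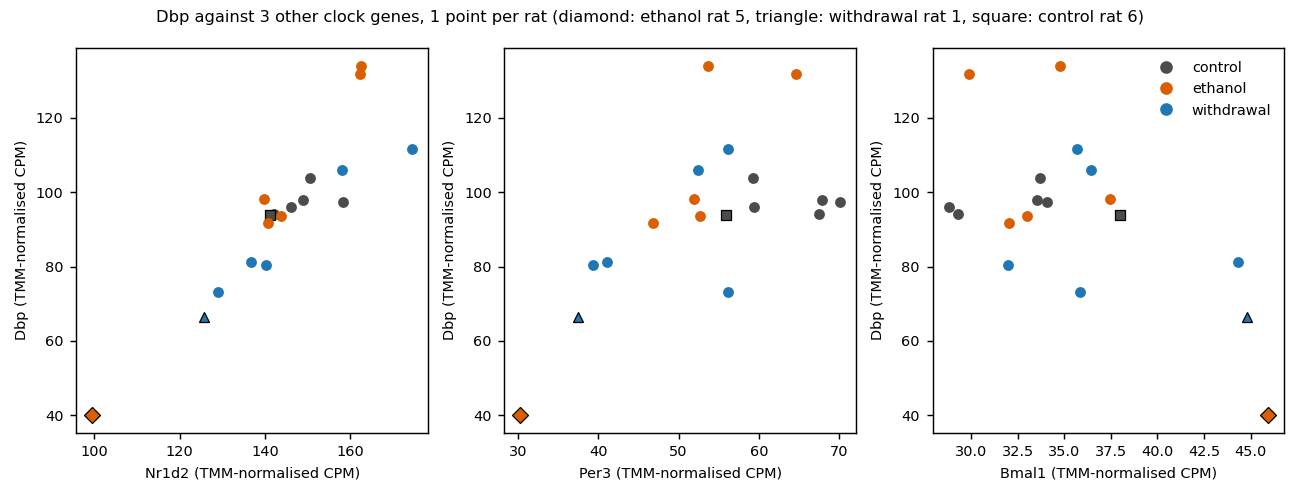
Dbp (y axis) against Nr1d2, Per3 and Bmal1 (x axes), all in TMM-normalised CPM and on axes that do not start at 0, with 1 point per rat. With Nr1d2 the rats of all groups lie near 1 rising line from ethanol rat 5 (99.6 and 40.1 CPM) upward, and the 3 rats with the most Bmal1 (44.3 to 46.0 CPM) have between 40.1 and 81.3 CPM of Dbp.

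The spread between rats was compared across the groups. The SD of log2 CPM was larger in ethanol than in control rats for 10 of the 10 members, while this held for 70.9% of all 17853 genes. It was larger in withdrawal than in control for 8 of 10, against 72.5% of all genes, a share near the members' own. The median ratio of the SDs was 2.03 for ethanol and 2.16 for withdrawal over the members, beside 1.32 and 1.40 over all genes.

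Dbp had the widest gap, with an SD of 0.054 in control, 0.63 in ethanol and 0.30 in withdrawal rats (log2 CPM, n = 6). Nr1d2 had 0.060, 0.26 and 0.18, and Cry2 had 0.049, 0.13 and 0.23. Clock varied little in every group (0.054, 0.065 and 0.072). Individual rats set part of this: without ethanol rat 5 the SD in ethanol was 0.27 for Dbp and 0.11 for Nr1d2, and without withdrawal rat 1 the SD in withdrawal was 0.070 for Cry1 in place of 0.28 and 0.11 for Cry2 in place of 0.23. Without ethanol rat 5, 9 of 10 members were still wider in ethanol than in control (62.4% of all genes), and without withdrawal rat 1, 6 of 10 in withdrawal (67.8% of all genes). The difference in spread was not tested.

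**Figure D5:**
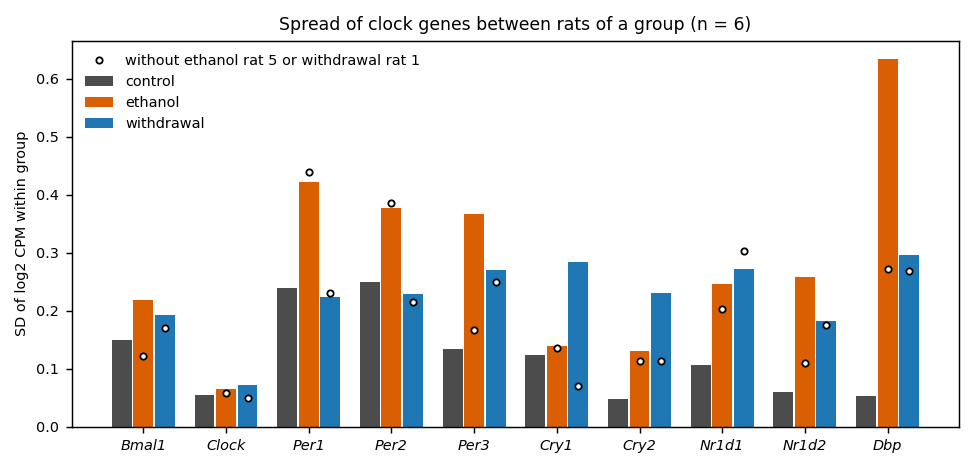
SD of log2 CPM among the 6 rats of each group (bars, from 0) for the 10 clock genes, with open circles for the SD without ethanol rat 5 and without withdrawal rat 1. Dbp is 0.054 in control and 0.63 in ethanol rats, and 0.27 when ethanol rat 5 is left out.

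Ethanol rat 5 was lowest of all 18 rats in Per3, Nr1d1, Nr1d2 and Dbp and highest in Bmal1. The 8 immediate early genes (such as Fos, which neurons switch on when they are active) summed to 673 CPM in that rat and to 682 CPM in withdrawal rat 1, while the other rats ran from 171 to 374 CPM. Both rats were the lowest of their group in Dbp, Nr1d2 and Per3 and the highest of their group in Bmal1. The part of the immediate early genes in these values was not tested. When ethanol rat 5 was left out, 4 members were called between withdrawal and ethanol, namely Dbp (log2 fold change −0.40, q = 0.0648, limma-voom), Clock (0.15, q = 0.0709), Per3 (−0.33, q = 0.0882) and Cry2 (0.28, q = 0.0966), in a fit that called 10.1% of all genes.

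Withdrawal rats 4 and 5 stood at the other end, with the highest Dbp (105.9 and 111.7 CPM) and Nr1d2 (158.1 and 174.5 CPM) of their group. In those rats 5 choroid plexus marker genes summed to 27.8 and 29.7 CPM, against 1167 to 5249 CPM in the other 4 withdrawal rats and 1065 to 2225 CPM in control rats. The choroid plexus sum and Dbp had r = 0.41 in control, 0.23 in ethanol and −0.86 in withdrawal rats (n = 6 each). Withdrawal rat 5 also had the lowest summed levels of hippocampal neuron markers (282 CPM) and astrocyte markers (1896 CPM) of the 18 rats and the highest thalamus sum of its group (523 CPM). The part of these cell types in the Dbp and Nr1d2 levels was not tested. Markers of the suprachiasmatic nucleus summed to between 45.1 and 189.7 CPM over the 18 rats. Most of that sum came from Rgs16 (group means 34.2 to 53.3 CPM) and Vip (17.0 to 27.9 CPM). Six6 was nearly absent (group means 0.0092 to 0.071 CPM) and did not pass the low-count filter. Of the 4 markers that could be tested, Avp was called between withdrawal and control (q = 0.0949, limma-voom, log2 fold change 1.12, SE 0.35). Its mean was 0.31 CPM in control rats and 0.77 CPM after withdrawal, near the 0.5 CPM of the filter. The other 3 were not called, with log2 fold changes of 0.30 for Vip, −0.16 for Rgs16 and −0.16 for Lhx1. In the same comparison 1 of 5 hippocampal neuron markers was called down, 1 of 4 astrocyte markers up and 1 down, and 2 of 3 endothelial markers up, where 5.41% of all genes were called. Between withdrawal and ethanol, where Tef was called, 1 of 4 astrocyte markers was called up, beside 2.72% of all genes. The 5 choroid plexus markers were all lower in withdrawal there (median log2 fold change −0.49), and none was called. The part of the markers in the levels of Per3, Tef and Npas2 was not tested.

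Among the rats that share an index set, the differences between withdrawal and ethanol were near those over all rats for Clock and Per3. In Clock the 2 withdrawal rats that share the set of the 6 ethanol rats lay 0.15 above the ethanol mean on the log2 scale, and all 6 lay 0.13 above it. The same values were −0.09 and −0.07 for Per3. For Cry2 (0.31 and 0.21) and Bmal1 (0.19 and 0.11) they were larger in the shared set. They were −0.40 and −0.11 for Dbp, 0.08 and 0.33 for Per2, and 0.47 and 0.23 for Cry1. They differed in sign for Nr1d1 (−0.05 and 0.22), Nr1d2 (−0.13 and 0.03) and Per1 (−0.03 and 0.04). The values for genes other than Clock and Per3 thus depended on which withdrawal rats were counted. With 2 withdrawal rats in that set no test was made.

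Likeness to Dbp was measured by Pearson r of group-centred log2 CPM over 18 rats, among the 11912 other named genes above 5 CPM on average. Nr1d2 came first, Per3 came at place 7 and Nr1d1 at place 81. The 4 highest genes outside the members were Aktip (0.88), Hlf (0.84), Coq8a (0.83) and Paip2b (0.82), and the 4 lowest were Nol11 (−0.86), Nup205 (−0.84), Strn3 (−0.82) and Larp7 (−0.80). In the list of further clock genes (here named after their values were seen), Ciart (0.81), Rorb (0.78), Tef (0.65), Bhlhe41 (0.62) and Timeless (0.53) were also positive with Dbp, and Sirt1 (−0.69), Cipc (−0.64), Nono (−0.59) and Nfil3 (−0.57) were negative. Tef was closer to Per3 (0.86) than to Dbp. For Bmal1 the highest were Tfrc (0.86), Kcna4 (0.85), Ets1 (0.81) and Cdkal1 (0.80) and the lowest Ccdc28a (−0.88), Specc1l (−0.86), Chrac1 (−0.85) and Mxi1 (−0.81), with Cry2 at place 281 and Clock at place 585.

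Per1 and Per2 are also known to answer directly to glucocorticoid hormone, and 8 genes induced by that hormone (Fkbp5, Tsc22d3, Sgk1, Zbtb16, Klf9, Pdk4, Errfi1 and Nfkbia) were therefore measured beside them. None of the 8 was called in any comparison by limma-voom, where 5.41%, 0.493% and 2.72% of all genes were called, while 4, 0 and 4 had an unadjusted p under 0.05 in the withdrawal vs. control, ethanol vs. control and withdrawal vs. ethanol comparisons, where 19.7%, 12.5% and 16.7% of all genes did. Within groups, the summed level of the 8 genes followed Per1 with r = 0.87 (permutation p = 3.0e-05, adjusted p = 0.00300 over 100 relations) and rho = 0.83 (permutation p = 6.0e-05, adjusted p = 0.00600, n = 18), and r = 0.80 without the 2 farthest rats. This was the 1 of 100 relations between members and 10 measures (9 summed lists and the library total) that passed an adjusted p of 0.05 by both coefficients. It held within each group, at r = 0.81 in control, 0.95 in ethanol and 0.84 in withdrawal rats (n = 6 each).

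Every one of the 8 genes was positive with Per1, from 0.47 for Zbtb16 to 0.86 for Sgk1, and with Per2, from 0.32 for Tsc22d3 to 0.85 for Zbtb16. Control rat 6 and ethanol rats 3 and 4, low in Per1 and Per2, had the lowest sums of the 8 genes (395, 405 and 445 CPM), while the other rats ran from 492 to 860 CPM. Ethanol rat 1, lowest of all rats in Per2 (36.1 CPM), had a sum of 602 CPM. The sum and Per2 had r = 0.67 (permutation p = 0.00804, adjusted p = 0.257 over 100 relations), and r = 0.50 without the 2 farthest rats. Their rho was 0.74 (permutation p = 0.00125, adjusted p = 0.0625), and neither coefficient passed an adjusted p of 0.05. The 8 immediate early genes were not called in any comparison either, with 1, 6 and 1 at an unadjusted p under 0.05 by limma-voom in the same order, beside the same shares of all genes. Between ethanol and control 8 of 8 were higher in ethanol (median log2 fold change 0.65), and between withdrawal and control 7 of 8 in withdrawal (median 0.35). Fos was higher in all 6 withdrawal rats than in every control (exact permutation p = 0.00216, q = 0.463 by limma-voom), where 1.06% of all genes did not overlap. The r of the 8 genes with Per1 ran from 0.04 for Fosb to 0.32 for Dusp1, and their r with Dbp was negative for 8 of 8 genes, from −0.30 for Npas4 to −0.73 for Nr4a1. Their summed level had r = −0.70 with Dbp (adjusted permutation p = 0.327 over 100 relations; rho = −0.33, permutation p = 0.22), which fell to −0.20 without the 2 farthest rats, so that it rests on those rats.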

How the data were processed

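The authors aligned the paired-end reads with STAR 2.5.2a to Rnor_6.0 (NCBI annotation 106) and counted with featureCounts 1.5.0, by strand and on exons, leaving out read pairs with several mapped places. The deposited values are raw counts for each gene. Of the 38445 gene identifiers, 29322 were named from RefSeq (GRCr8, used for names and promoter windows only). Gene coordinates are those of the deposited files.

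Counts were normalised by TMM in edgeR 4.0.16. Genes over 0.5 CPM in 1 or more rats entered limma 3.58.1 (voom, R 4.3.3), in 1 model of all 3 groups with 3 surrogate variables from sva 3.50.0 (log2 CPM, prior count 2) and Benjamini-Hochberg adjustment over all genes (q, threshold 0.1 as in the study). Log2 fold changes come from that model, and CPM means and the two-sided exact permutation tests (924 splits) do not use surrogate variables. Members, lists and named genes were chosen by symbol and role with earlier results of these data known, and the further clock genes that were called are named. Alternatives were other numbers of surrogate variables, edgeR, DESeq2 1.42.0, other scalings, filters, weights and thresholds, a replicate block and leaving out each rat. Rats with the same number are different animals (correlations of their deviations from the group means between −0.32 and 0.38). Whether equal numbers mark rats that were pair fed or handled together was not given, and the main model did not pair them.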

Additional observations from a re-analysis of the deposited data

Results flagged for a closer look

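Of 39 groups of 6 rats examined (the 10 clock genes, Tef, Npas2 and Hlf in 3 groups), 6 had a rat that stood apart from the other 5 by Dixon's ratio of gap to range. Chance gives about 1 in 20 groups, and the genes share rats, so the 6 are not independent. Control rat 6 lay below the other controls in Per1 (58.3 CPM, next rat 81.6 CPM) and in Per2 (42.6 CPM, next rat 62.9 CPM), and that rat also had the lowest summed level of the glucocorticoid-induced genes among all 18 rats (395 CPM). Control rat 3 lay above the other controls in Clock (119.1 CPM, next rat 110.5 CPM). Ethanol rat 5 lay below the other ethanol rats in Nr1d2 (99.6 CPM, next rat 139.7 CPM). Withdrawal rat 1 lay above the other withdrawal rats in Cry1 (23.8 CPM, next rat 15.8 CPM) and in Cry2 (195.5 CPM, next rat 148.6 CPM). The cause of these values was not tested.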

How the results depend on the processing

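No clock gene and no further clock gene was called between ethanol and control under any of the 15 other settings or the 18 fits that each left out 1 rat. Per3 kept its direction between withdrawal and control in all of them, and so did Tef and Npas2. The numbers called moved as follows, with the cause not tested. Clock genes between withdrawal and control (1 as reported) numbered 0 at q < 0.05, without surrogate variables, with edgeR without them, with DESeq2, with no filter and with the replicate block without surrogate variables. They numbered 2 with sample quality weights (Per3 and Nr1d1), 2 with the replicate block and 3 surrogate variables (Per3 and Cry2), and 3 with only the 2 groups compared (Per3, Cry2 and Dbp). Clock genes between withdrawal and ethanol (0 as reported) numbered 1 with DESeq2 (Clock). Clock genes with any difference among the 3 groups (1 as reported) numbered 2 with sample quality weights and 0 at q < 0.05, without or with 2 surrogate variables, with edgeR without them, with no filter and with the block without surrogate variables. Further clock genes between withdrawal and control (2 as reported) numbered 1 without surrogate variables, 0 with edgeR without them or with the block without them, and 4 with only the 2 groups. Between withdrawal and ethanol (1 as reported) they numbered 3 without surrogate variables and with edgeR without them, 4 with DESeq2, 2 with 4 surrogate variables or sample quality weights, and 0 at q < 0.05, with only the 2 groups and with either block. Of all genes, the share called between withdrawal and control (5.41% as reported) was 2.07% at q < 0.05, 0.230% without surrogate variables, 0.185% with edgeR without them, 2.44% with DESeq2, 1.66% with no filter, 0% with the block without surrogate variables, 5.27% with the block and 3, 6.34% with quality weights and 6.60% with only the 2 groups. Between withdrawal and ethanol (2.72% as reported) it was 0.627% at q < 0.05, 3.48% without surrogate variables, 3.82% with edgeR without them, 8.08% with DESeq2, 5.02% with 4 surrogate variables, 6.01% with quality weights, 0% with only the 2 groups, 0.0056% with the block and 3 surrogate variables and 0.0784% with the block without them. For any difference (5.60% as reported) it was 11.7% with quality weights, 1.79% at q < 0.05, 1.68% without and 3.56% with 2 surrogate variables, 2.68% with edgeR without them, 1.66% with no filter and 0% with the block without them.

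Over the fits that left out 1 rat, the clock genes called ran from 0 to 4 between withdrawal and control, from 0 to 4 between withdrawal and ethanol and from 0 to 3 for any difference, and the further clock genes from 0 to 7 between withdrawal and control and from 0 to 4 between withdrawal and ethanol. In the same fits the share of all genes called ran from 0.129% to 10.7%, from 0% to 10.1% and from 0.202% to 11.5%. The highest counts of members came without withdrawal rat 2 and without ethanol rat 5, where those shares were highest for withdrawal against control (10.7%) and against ethanol (10.1%), and without withdrawal rat 6 they were 0.129% and 0%. Further clock genes between withdrawal and control numbered 1 without control rat 3 or 4 or withdrawal rat 3 and 0 without withdrawal rat 6, and between withdrawal and ethanol 2 without ethanol rat 1 or withdrawal rat 2 or 5 and 0 without ethanol rat 2 or 3 or withdrawal rat 6.

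Changes of sign were found for log2 fold changes that were not called. Between ethanol and control, Clock (0.00092 as reported) was −0.011 without surrogate variables, −0.0039 with 2, −0.00084 with 4, −0.010 with edgeR without them, −0.013 with DESeq2, −0.00033 with RLE size factors, −0.0070 with library totals, −0.00011 with the stricter filter, −0.0090 with quality weights and −0.011 with the replicate block without surrogate variables. Cry2 was −0.0092 with 2 surrogate variables, −0.029 with quality weights and −0.047 with only the 2 groups, where Per1 was −0.027, Nr1d1 −0.023 and Tef −0.0059. Dbp was 0.016 with edgeR without surrogate variables and 0.014 with DESeq2, and Tef −0.0071 with the replicate block and 3 surrogate variables. Between withdrawal and control Cry1 was −0.014 with 2 surrogate variables, −0.0028 with library totals and −0.054 with quality weights. Between withdrawal and ethanol Per1 was −0.0045 with edgeR and 3 surrogate variables and −0.035 with the replicate block and 3.

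Leaving out 1 rat, the log2 fold change against control in ethanol ran from −0.037 to 0.037 for Clock, −0.063 to 0.072 for Cry2, −0.00026 to 0.28 for Per1, −0.23 to 0.0059 for Nr1d2, −0.43 to 0.15 for Dbp and −0.077 to 0.15 for Tef, and in withdrawal from −0.089 to 0.11 for Cry1 and −0.16 to 0.036 for Per2. Between withdrawal and ethanol it ran from −0.15 to 0.16 for Per1, −0.041 to 0.28 for Per2, −0.33 to 0.083 for Per3, −0.12 to 0.17 for Bmal1, −0.092 to 0.16 for Nr1d2, −0.40 to 0.21 for Dbp and −0.046 to 0.090 for Npas2.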
